A study of Homo sapiens with 8 samples.

Results

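The 9 genes described here encode secreted proteins of the extracellular matrix and its regulators, namely FN1, VCAN, TNC, THBS1, TGFBI, SPARC, CCN1, CCN2 and TIMP2. All peaks whose gene column named one of them were taken from the peak lists of 4 immunoprecipitation (IP) libraries, which gave 1456 of 1843422 peaks. The libraries come from enhanced crosslinking and immunoprecipitation (eCLIP) in A172, an established human glioma cell line. The study set out to map the RNA targets of PTBP1 and of IGF2BP2, which the sample titles call IMP2. Its 8 samples form 4 groups of 2, the PTBP1 IP, the PTBP1 input, the IGF2BP2 IP and the IGF2BP2 input. Every group had the same treatment, 4-thiouridine at 500 µM over 3 h followed by 365 nm light at 400 mJ/cm2, given 2 times, and 2% of each lysate was kept as input. For PTBP1 the membrane was cut between 55 and 130 kDa, and for IGF2BP2 between 65 and 140 kDa. No knockdown, IgG control or second cell line is among the samples used here. Nothing says that the replicates came from separate cultures, so errors and p-values cover the spread between libraries, which may be technical.

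PTBP1, the polypyrimidine tract-binding protein, binds pyrimidine-rich RNA, much of it in introns, and is known as a regulator of splicing. IGF2BP2 binds mature mRNAs, mainly in 3′ UTRs, and is known for its part in mRNA stability, transport and translation. Fibronectin (FN1), versican (VCAN), tenascin-C (TNC) and thrombospondin-1 (THBS1) build or decorate the matrix around glioma cells, TGFBI binds collagens and integrins, SPARC, CCN1 and CCN2 modulate how cells attach to matrix, and TIMP2 inhibits matrix metalloproteinases.

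The lists held 600615 and 538802 peaks for PTBP1 and 362700 and 341305 for IGF2BP2. A peak rested on a median of 12 and 9 recovered IP reads in the PTBP1 lists and of 4 in each IGF2BP2 list. At the 9 genes the medians were 54 and 40 reads for PTBP1 and 10 in each IGF2BP2 library. Glioma-line markers had peaks for VIM (29 and 20 in PTBP1, 8 and 8 in IGF2BP2), NES and CD44, while SOX2 had 0 in every library. Markers of other cells such as RBFOX3 also had peaks (183 and 170 in PTBP1, 78 and 59 in IGF2BP2). Peak numbers are not expression levels and can follow gene length, so these lists do not test the labelled cell type.

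The 9 genes held 440 and 414 peaks in the PTBP1 libraries and 302 and 300 in the IGF2BP2 libraries, and they were spread very unevenly. TIMP2 alone had 233 and 224 PTBP1 peaks and 201 and 209 IGF2BP2 peaks, which made up 59.5% of the members' peaks. SPARC followed with 80 and 82 PTBP1 peaks and 37 and 34 IGF2BP2 peaks. VCAN had 39 and 36 PTBP1 peaks and 11 and 8 IGF2BP2 peaks. FN1, although its gene spans 75.2 kb, had only 22 and 18 PTBP1 peaks and 4 and 3 IGF2BP2 peaks. THBS1 had 26 and 24 PTBP1 peaks and 19 and 18 IGF2BP2 peaks, none of them in introns. Among the short genes of the CCN family, CCN1 had 11 PTBP1 peaks in each library and 11 and 7 IGF2BP2 peaks, and CCN2 had 18 and 13 PTBP1 peaks and 17 and 20 IGF2BP2 peaks. TGFBI (9 and 4 PTBP1 peaks, 1 and 0 IGF2BP2 peaks) and TNC (2 and 2 PTBP1 peaks, 1 and 1 IGF2BP2 peaks) were barely covered.

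**Figure D1:**
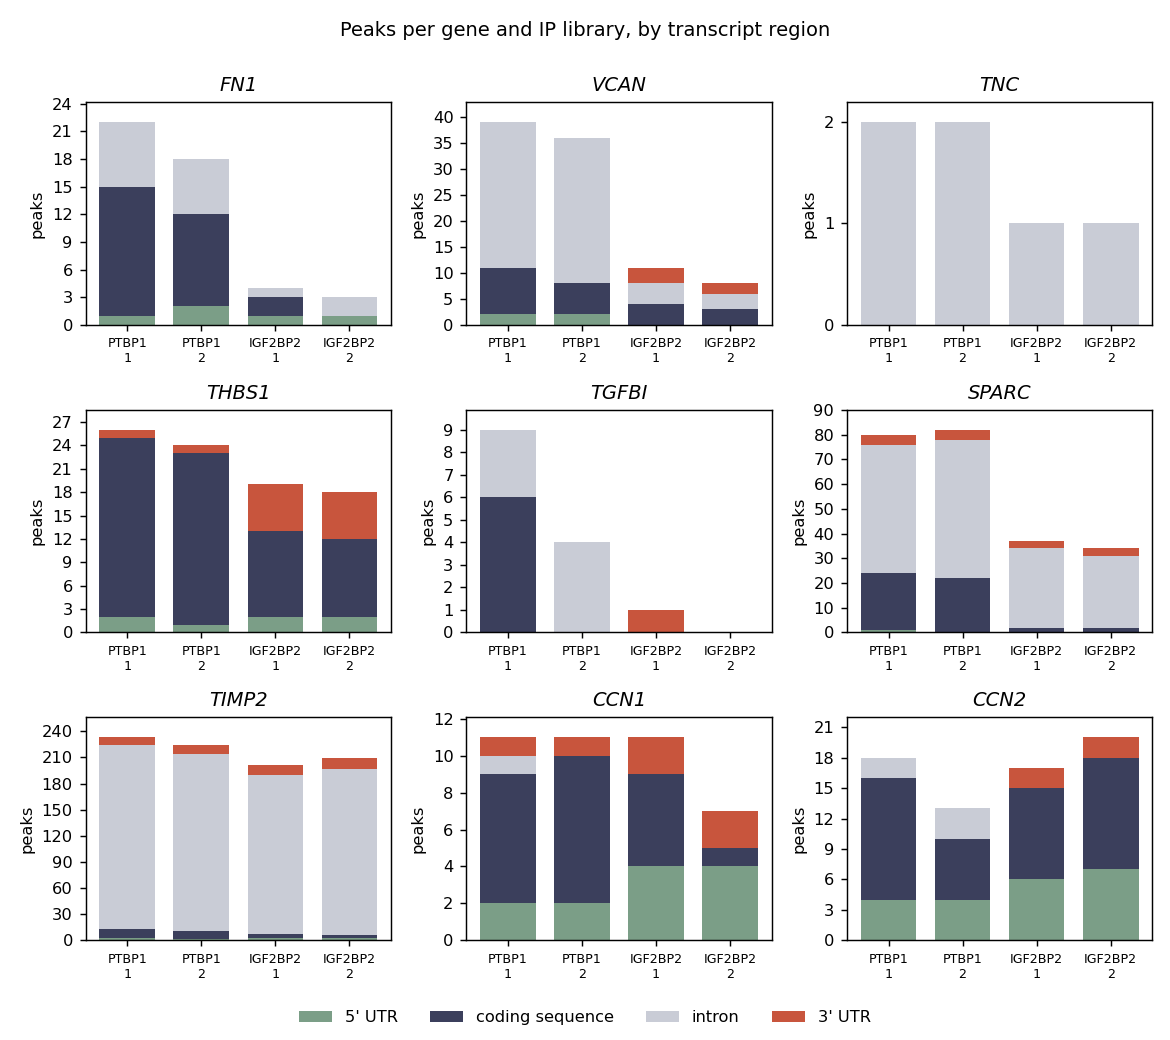
Number of peaks of each gene (vertical axis, own scale per panel) in the 2 PTBP1 and the 2 IGF2BP2 libraries (horizontal axis), coloured by the transcript region the files give. TIMP2 and SPARC peaks are mostly intronic, THBS1 peaks mostly in coding sequence, and 3′ UTR peaks of CCN2 and VCAN occur in the IGF2BP2 libraries only.

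The files name a gene for peaks on either strand. Peaks on the strand opposite to the named gene made up 16.1% and 16.9% of the members' PTBP1 peaks and 18.2% and 16.3% of their IGF2BP2 peaks, against 7.79% to 7.85% over all genes. SPARC held 110 of them, and all 110 lie inside CLMAT3, a lncRNA that RefSeq places at chr5:151676945-151687910 on the plus strand, over the 5′ part of SPARC, which runs on the minus strand. The other opposite-strand peaks were in TIMP2 (86, of which 56 lie inside the extent of CEP295NL), VCAN (30, with 22 inside VCAN-AS1), CCN2 (15, all inside CCN2-AS1) and THBS1 (4). Own-strand peaks share ground with neighbours too, 236 of the 781 of TIMP2 with CEP295NL, all 53 of CCN2 with CCN2-AS1, 34 of the 123 of SPARC with CLMAT3 and 16 of the 47 of FN1 with ATIC. A further 5 peaks of FN1, those of its 5′ UTR, lie inside the lncRNA FN1-DT. RefSeq gives ATIC and FN1-DT on the plus strand, opposite to FN1, while the table used here lists no strand for CEP295NL or CCN2-AS1. Which transcript such a peak came from was not tested. FN1, TNC, CCN1 and TGFBI had no opposite-strand peak.

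Peak density was set against the length of each list, as log2 of a gene's peaks (plus 0.5) per 10000 peaks, and was compared by limma over all 15145 genes with at least 10 peaks. FN1, VCAN and SPARC had a higher density in the PTBP1 libraries, and TIMP2 and CCN2 in the IGF2BP2 libraries. Of the 8 members tested (TNC had too few peaks), 3 were thus higher in PTBP1 and 2 in IGF2BP2. Over all genes tested, 12.7% were called higher in PTBP1 and 12.3% higher in IGF2BP2. The median PTBP1 minus IGF2BP2 difference was 0.11 over the 8 members and -0.01 over all genes, on the log2 scale.

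FN1, which encodes the fibronectin of the pericellular matrix, had a density of -1.42 and -1.54 in PTBP1 and of -3.01 and -3.29 in IGF2BP2. The groups did not overlap, and the difference was 1.67 ± 0.36 (SE, limma, adjusted p = 0.0182). VCAN, a large proteoglycan, differed by 1.25 ± 0.24 (SE, limma, adjusted p = 0.0125), again with no overlap. Without peaks mirrored on the opposite strand, which made up 46 of its 94 peaks, the VCAN difference was 1.79. SPARC, a matricellular glycoprotein that binds collagen, differed by 0.49 ± 0.14 (SE, limma, adjusted p = 0.0460). That value depends on strand. On the gene's own strand SPARC had 51 and 53 PTBP1 peaks and 10 and 9 IGF2BP2 peaks, and on the opposite strand 29 and 29 PTBP1 peaks and 27 and 25 IGF2BP2 peaks. With own-strand peaks only, its difference was 1.71 (limma, adjusted p = 0.00200). Counted as nucleotides covered in place of peaks, the SPARC difference was -0.15.

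TIMP2 had a lower density in PTBP1, with a difference of -0.54 ± 0.09 (SE, limma, adjusted p = 0.00729). CCN2, a matricellular protein also known as connective tissue growth factor, differed by -0.95 ± 0.27 (SE, limma, adjusted p = 0.0405). THBS1 (-0.27, limma, adjusted p = 0.370), CCN1 (-0.38, adjusted p = 0.451) and TGFBI (2.22 ± 0.82, adjusted p = 0.0886) did not pass. The calls of FN1, VCAN, SPARC and CCN2 were lost when either PTBP1 library was left out, with adjusted p-values of 0.0713 to 0.283, while their signs stayed as they were. With peaks of at least 10 recovered IP reads, the differences were 2.70 for VCAN, -1.34 for TIMP2, -3.86 for CCN2 and -2.28 for CCN1, which then passed (limma, adjusted p = 0.00539), and FN1 had too few such peaks to be tested.

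**Figure D2:**
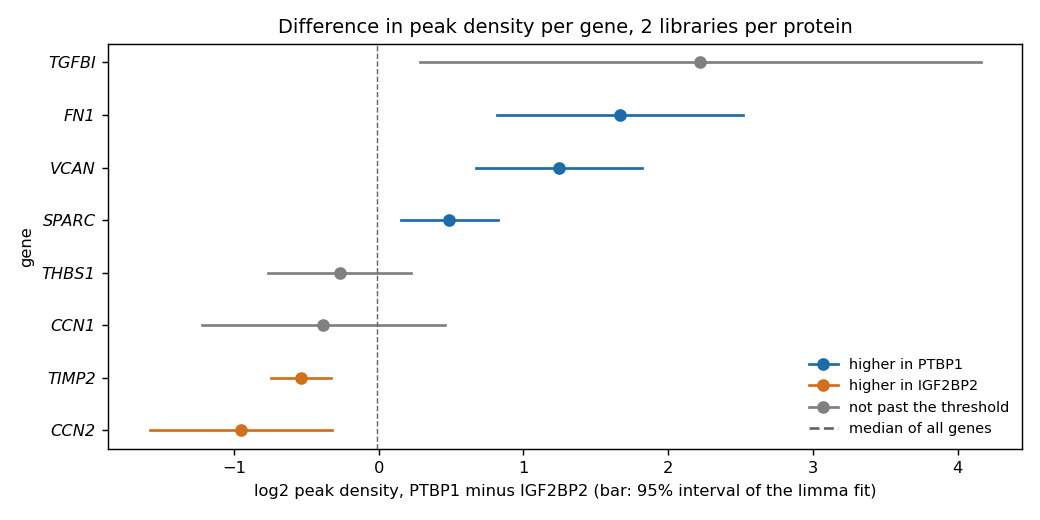
Difference in log2 peak density, PTBP1 minus IGF2BP2 (horizontal axis), for the 8 members tested (vertical axis), as the limma estimate with its 95% interval. FN1, VCAN and SPARC lie right of 0 and CCN2 and TIMP2 left of it, while the median of all genes is -0.01; TGFBI has the widest interval.

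The values of single peaks are given below as the log2 of IP over input reads, on 1 scale per library. A peak was called enriched when this log2 and its −log10 p were both at least 3, and a region when both replicates of a protein had enriched peaks that overlapped. PTBP1 had 7 such regions in 2 of the 9 genes, and IGF2BP2 had 20 in 5 of them. The background over all 19767 genes was 14.0% with a PTBP1 region and 19.4% with an IGF2BP2 region of this kind. The scale constant was -0.30 and -0.08 in the PTBP1 libraries and 1.74 and 1.90 in those of IGF2BP2, so an IGF2BP2 peak reached a log2 of 3 with fewer IP reads per input read.

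Enriched IGF2BP2 regions lay in the 3′ UTRs of SPARC, CCN1, CCN2, THBS1 and TIMP2. These 5 genes held 13 such regions, whereas no member held an enriched PTBP1 region in its 3′ UTR. Over all genes, 0.622% held an enriched PTBP1 region in a 3′ UTR and 6.81% an enriched IGF2BP2 region there. Of the members' 3′ UTR peaks, 0 of 15 and 0 of 16 were enriched in the PTBP1 libraries, against 18 of 28 (64.3%) and 16 of 27 (59.3%) in the IGF2BP2 libraries. Over all genes 2.22% and 2.15% of 3′ UTR peaks were enriched in the PTBP1 libraries and 20.9% in each IGF2BP2 library. The −log10 p of a peak depends on its reads, and over all regions the members' IGF2BP2 peaks had more. Their median was 10 IP reads in each library, against 4 over all IGF2BP2 peaks. The part this plays was not tested. The median log2 of the members' 3′ UTR peaks was -0.17 and -0.07 in PTBP1 and 4.42 and 4.90 in IGF2BP2.

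SPARC carried the highest of these values. At chr5:151662076-151662092 (hg38, minus strand) no PTBP1 peak was listed, and the IGF2BP2 log2 was 7.07 and 8.63, from 121 IP reads to 3 input reads and 106 to 1. Further upstream in the same 3′ UTR, at chr5:151663060-151663088, PTBP1 had a log2 of 0.90 in each library and IGF2BP2 of 6.29 and 6.90. There the IGF2BP2 −log10 p stood at 400, where the deposited values stop, so its reads were not recovered, while PTBP1 had 184 IP reads to 80 input reads and 138 to 70. PTBP1 thus had many reads at that site, with a log2 just below the median of all its peaks (0.95 and 1.01).

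The paralogs CCN1 and CCN2, both secreted ligands of integrins, each had 2 enriched IGF2BP2 regions near the end of the transcript. In CCN1, at chr1:85583066-85583156 (plus strand), PTBP1 had a log2 of 2.19 and 2.27 (62 IP reads to 11 input reads and 51 to 10) and IGF2BP2 of 6.03 and 6.01 (98 to 5 and 86 to 5). The second CCN1 region, at chr1:85583456-85583488, had no PTBP1 peak and an IGF2BP2 log2 of 5.91 and 5.36. CCN2 had no PTBP1 peak in its 3′ UTR at all. Its IGF2BP2 regions at chr6:131948981-131949012 and chr6:131948874-131948891 (minus strand) had a log2 of 6.95 and 7.23 and of 6.06 and 6.15, the first from 37 and 40 IP reads to 1 input read. In both genes the IGF2BP2 values of the 2 replicates lay close together and above every PTBP1 value of the gene.

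TIMP2, a secreted inhibitor of metalloproteinases, had 5 enriched regions in its 3′ UTR. The one with the highest mean, at chr17:78855482-78855521, was on the plus strand, opposite to TIMP2, with an IGF2BP2 log2 of 5.62 and 5.81 and no PTBP1 peak. It overlaps a minus-strand region at chr17:78855390-78855531, where IGF2BP2 reached 5.03 and 4.92. At chr17:78854716-78854766 (minus strand), chosen after its values were seen, PTBP1 was below its input with a log2 of -1.04 and -1.06 and IGF2BP2 had 4.51 and 5.48. Over the 3′ UTR peaks of TIMP2 the median log2 was -1.10 and -1.21 in PTBP1 and 2.80 and 3.98 in IGF2BP2. The TIMP2 count is high among genes. Of the 1346 genes with an enriched IGF2BP2 region in a 3′ UTR, 5.79% held at least as many. This count takes overlapping regions on opposite strands separately, as with the overlapping TIMP2 regions above. THBS1, an adhesive glycoprotein and activator of latent TGF-beta, had 1 enriched region at chr15:39596202-39596237, with an IGF2BP2 log2 of 4.32 and 4.90 from only 6 and 8 IP reads to 1 input read, and no PTBP1 peak.

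**Figure D3:**
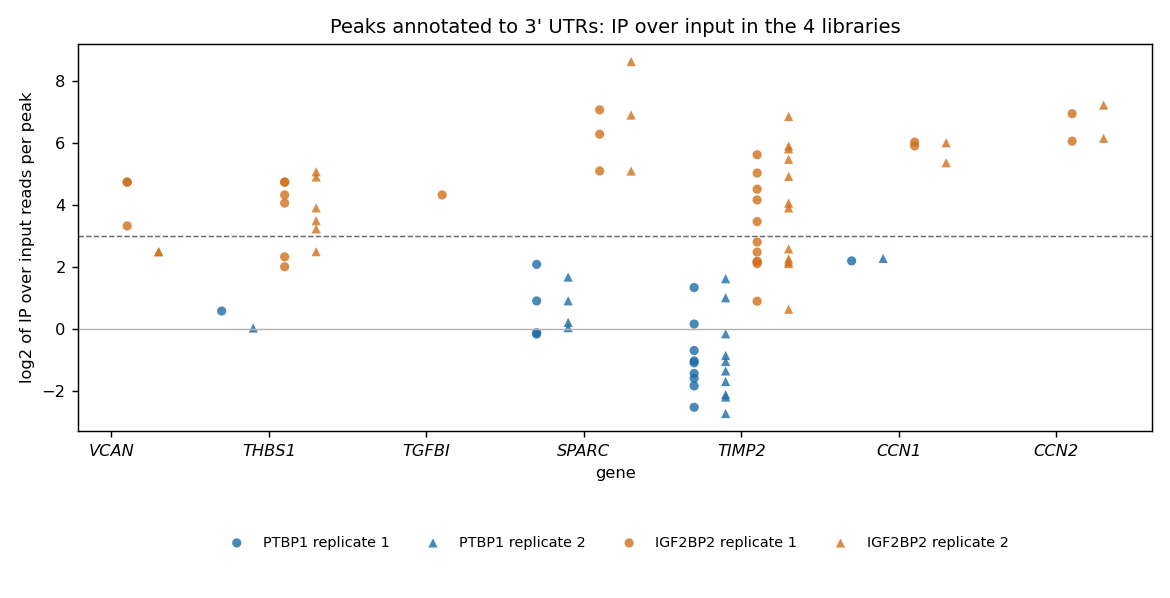
log2 of IP over input reads (vertical axis) of each 3′ UTR peak of the 7 genes that have any, with the 2 PTBP1 libraries left of the 2 IGF2BP2 libraries at each gene. No PTBP1 peak reaches the dashed line at a log2 of 3, and in SPARC, TIMP2, CCN1 and CCN2 both IGF2BP2 libraries have peaks far above it.

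Enriched PTBP1 regions of the members were intronic with 1 exception. SPARC held 6, all in introns, and TIMP2 held 1 in coding sequence. Over all genes 9.27% held an enriched PTBP1 region in an intron and 5.42% one in coding sequence. Of the 1833 genes with an enriched PTBP1 intron region, 5.95% had at least as many as SPARC. This count takes overlapping regions on opposite strands separately, as in SPARC near chr5:151686434-151686567 and chr5:151681386-151681430. The region with the highest mean lay at chr5:151686465-151686561, close to the start of SPARC but on the plus strand, with a PTBP1 log2 of 4.56 and 4.12 and no IGF2BP2 peak. On SPARC's own strand, chr5:151686434-151686567 had a PTBP1 log2 of 4.30 and 4.11, with 365 IP reads to 15 input reads at one of its peaks in replicate 1 and 310 to 17 in replicate 2. With own-strand peaks only, 3 of the 6 SPARC regions remained. On the deposited values, before chromosomes were put on 1 constant, PTBP1 had 5 enriched regions in the members. The SPARC regions at chr5:151665541-151665568 and around chr5:151681386-151681430 then fell below 3 in replicate 1 (2.85, 2.89 and 2.87). A coding region of CCN1 at chr1:85582562-85582621 then passed, with 3.24 and 3.19, against 2.64 and 2.59 on the common scale. The coding-sequence region of TIMP2, at chr17:78873872-78873919, had a PTBP1 log2 of 3.54 and 4.17 from 43 IP reads to 3 input reads and 19 to 1.

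IGF2BP2 also had enriched intron regions, 3 in SPARC and 4 in TIMP2, where 12.7% of all genes held at least 1. In SPARC the highest lay at chr5:151677274-151677459 on the plus strand with 4.55 and 5.23, and a pair near chr5:151678945-151678963 had the same 3.38 and 4.55 on both strands. In TIMP2 the highest lay at chr17:78895440-78895497 with 4.20 and 5.71. The members' intron peaks had a median log2 of 0.98 and 1.03 in PTBP1, close to the 0.95 and 1.03 of all genes. In IGF2BP2 it was 0.97 and 1.23, below the 2.32 and 2.49 of all genes. Over all regions, the members' IGF2BP2 peaks had a median of 10 IP reads in each library, against 4 over all IGF2BP2 peaks. The part that read numbers play in these medians was not tested.

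**Figure D4:**
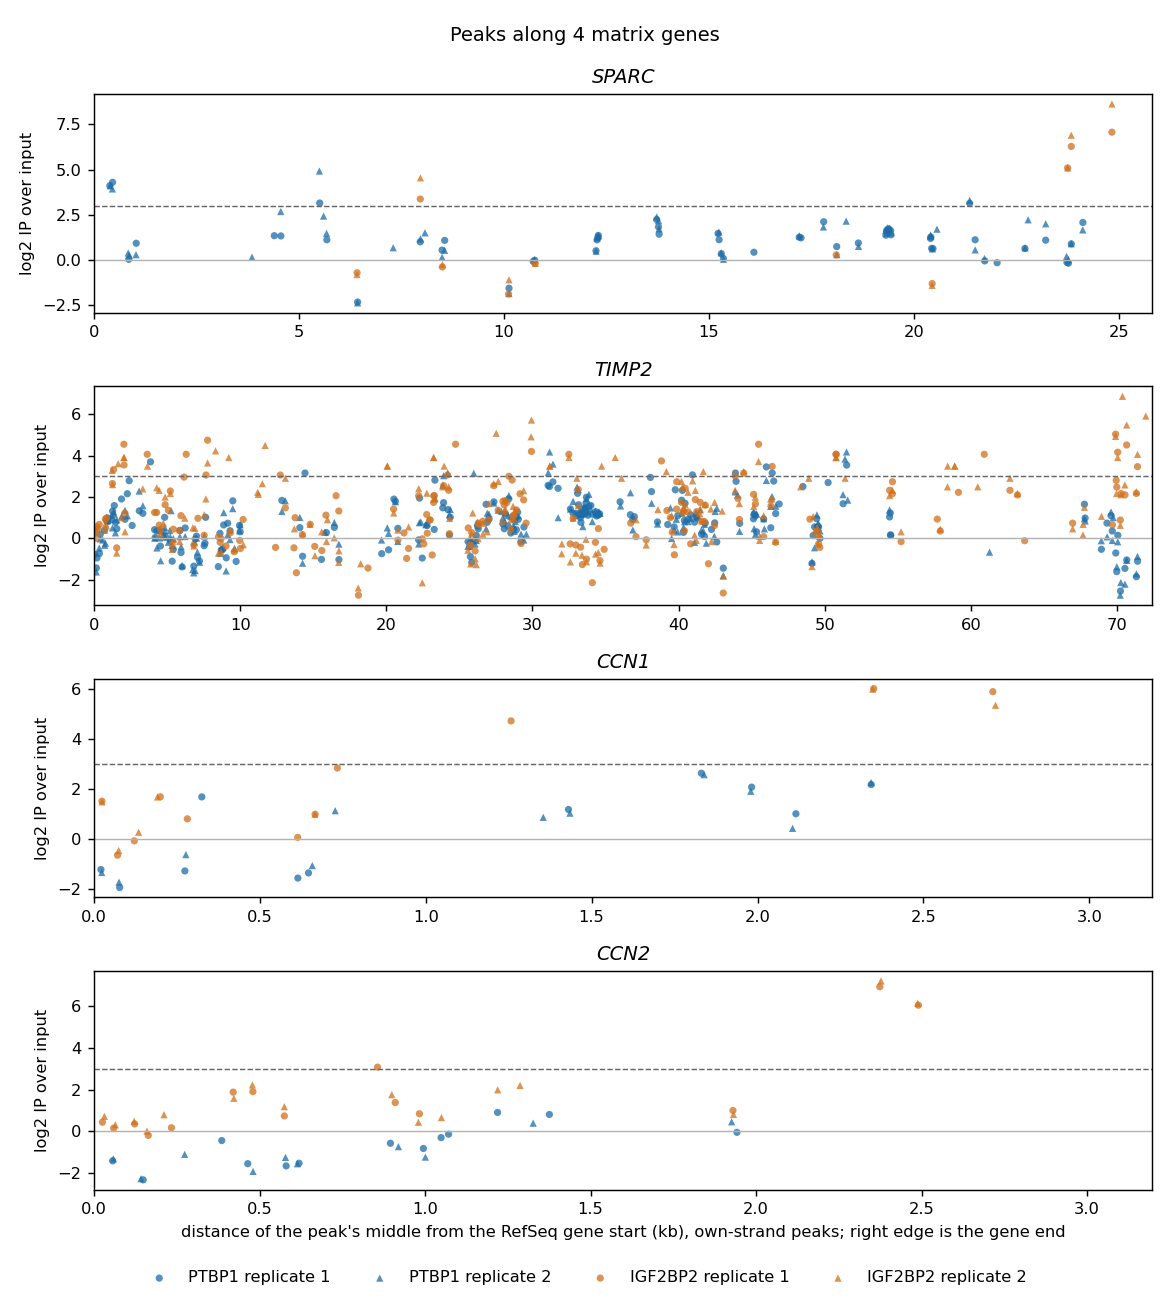
log2 of IP over input reads (vertical axis) of own-strand peaks against distance from the gene start in kb (horizontal axis, right edge at the gene end) in SPARC, TIMP2, CCN1 and CCN2. The highest IGF2BP2 peaks of SPARC, CCN1 and CCN2 sit near the 3′ end, while the highest PTBP1 peaks of SPARC lie in its first 6 kb.

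FN1, VCAN, TNC and TGFBI had no region enriched in both replicates of either protein. TNC and VCAN peaks held a median of 21 and 5 IP reads (TNC) and of 13 and 8 (VCAN) in PTBP1, and of 3 and 3 (TNC) and of 5 and 4 (VCAN) in IGF2BP2. In FN1 the PTBP1 peaks had a median of 4.5 and 3.5 IP reads and the IGF2BP2 peaks of 3 in each library, and none of the 47 peaks was enriched. Only 7 of 22 and 7 of 18 PTBP1 peaks of FN1 overlapped a peak of the other replicate. VCAN had a PTBP1 intron site at chr5:83540005-83540125 (plus strand) with 27 IP reads to 4 input reads in replicate 1 and 23 to 1 in replicate 2. The log2 was 2.45 and 4.45, so that it was enriched in replicate 2 only, and its reads were listed on both strands. IGF2BP2 had no peak there in replicate 1 and 4 IP reads to 1 in replicate 2, and the site was chosen after its values were seen. In VCAN the highest IGF2BP2 log2 in the 3′ UTR was 4.74 in replicate 1, from 8 IP reads to 1 input read, and 2.49 in replicate 2, from 3 to 2, and in each replicate the same reads were listed on both strands. TNC, a matrix protein of glioma and wound tissue, had 2 enriched PTBP1 intron peaks in replicate 1 (4.40 and 3.70) but a log2 of 2.51 at the first of these sites in replicate 2. All 9 PTBP1 peaks of TGFBI in replicate 1 had a −log10 p of 0. None of the 9 and 4 PTBP1 peaks of TGFBI overlapped one of the other replicate, and its single IGF2BP2 peak, in the 3′ UTR, had a log2 of 4.32 from 6 IP reads to 1. The levels of these transcripts are not in the peak lists, so weak binding and few transcripts cannot be told apart.

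The 5′ ends of 5 members divided the proteins as well, though no 5′ UTR peak was enriched. At 2 of these ends, 30 bases covered by both IGF2BP2 libraries were within the window RefSeq gives around the gene start (GRCh38.p14). They are printed to show the RNA under these peaks, with capitals for bases under peaks of at least 3 of the 4 libraries.
THBS1, chr15:39581085-39581114, plus strand: tgcgccCGAGCTGGCCTGCGAGTTCagggc
CCN2, chr6:131951324-131951353, minus strand: CTGAGAGGAGACAGCCAGTGCGACTCCACC
At the THBS1 bases PTBP1 had a log2 of -0.30 in replicate 1 and no peak in replicate 2, and IGF2BP2 had 1.96 and 1.90. At the CCN2 bases PTBP1 had -1.42 and -1.32. The CCN2 bases lie under abutting IGF2BP2 peaks, with 0.15 and 0.44 in replicate 1 and 0.31 and 0.72 in replicate 2.

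FN1, THBS1, TIMP2, CCN1 and CCN2 were the 5 members with 5′ UTR peaks in all libraries. In each, the median log2 of these peaks was below 0 in every PTBP1 library and above 0 in every IGF2BP2 library. VCAN had peaks of PTBP1 alone in its 5′ UTR. Their log2 was -0.09 and 0.50 in replicate 1 and 1.25 and -0.44 in replicate 2. SPARC had 1 peak in its 5′ UTR, in PTBP1 replicate 1 (-0.08), and TNC and TGFBI had none. Both proteins were low in the members' 5′ UTRs against all genes. Over the members' 5′ UTR peaks the IGF2BP2 medians were 0.29 and 0.50, below the 1.28 and 1.32 of all genes. The PTBP1 medians were -1.21 and -1.39, below the 0.64 and 0.66 of all genes. Over all regions the members' peaks had more reads than all peaks, as given above, and the part this plays was not tested. In CCN1, an immediate early gene induced by growth factors, the medians were -1.57 and -1.52 in PTBP1 and 0.73 and 0.89 in IGF2BP2. In FN1 they were -2.55 and -1.12 in PTBP1 and 0.59 and 0.10 in IGF2BP2. The proteins did not overlap in any of the 5, and over all genes 55.3% had 5′ UTR medians higher in both IGF2BP2 libraries. On the deposited scale, before chromosomes were put on 1 constant, the 5 members still did not overlap, but the FN1 value of IGF2BP2 replicate 2, which rests on 1 peak, was -0.03. In coding sequence the direction differed between genes. SPARC had a median of 1.27 and 1.43 in PTBP1 (23 and 22 peaks) and of -0.74 and -0.79 in IGF2BP2 (2 and 2 peaks), whereas CCN2 had -0.51 and -0.99 in PTBP1 and 1.00 and 1.18 in IGF2BP2. On the deposited scale the CCN2 medians were 0.35 and -0.13 in PTBP1 and 1.04 and 1.20 in IGF2BP2. VCAN had 1.43 and 1.16 in PTBP1 and 2.03 and 1.90 in IGF2BP2. The medians of THBS1, TIMP2 and CCN1 coding peaks overlapped between the proteins, though on the deposited scale those of CCN1 were 1.61 and 1.56 in PTBP1 and 0.88 and 0.93 in IGF2BP2. Over all genes 23.8% had coding medians higher in PTBP1 and 44.9% higher in IGF2BP2.

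Joining overlapping peaks of all libraries gave 588 sites in the 9 genes, of which 124 had a peak in all 4 libraries. All 10 shared 3′ UTR sites had both IGF2BP2 values above both PTBP1 values, as did 78.0% of such sites over all genes. The members' median PTBP1 minus IGF2BP2 log2 there was -4.61, against -1.82 over all genes. Of the 10 sites, 6 lie in TIMP2, whose own median was also -4.61. The others had -5.38 in SPARC (median of 2 sites), -3.79 in CCN1 and -2.32 in THBS1 (1 site each). All 7 shared 5′ UTR sites, which include 1 on the strand opposite to CCN2, also had higher IGF2BP2 values, against 53.7% over all genes, with a median difference of -1.99 against -0.76. Of 16 shared coding sites, 3 were higher in PTBP1 and 9 in IGF2BP2, while over all genes 39.4% were higher in PTBP1 and 33.7% in IGF2BP2. Of these 9, 5 were in CCN2. The 91 shared intron sites were mixed, with 18 higher in PTBP1 and 38 in IGF2BP2, while over all genes 11.7% were higher in PTBP1 and 56.8% in IGF2BP2. Their median difference was -0.41, against -0.89 over all genes, and 72 of the 91 lie in TIMP2. No site was enriched in all 4 libraries. Shared sites had to hold a peak in every library, so sites with peaks of 1 protein alone are not among them.

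**Figure D5:**
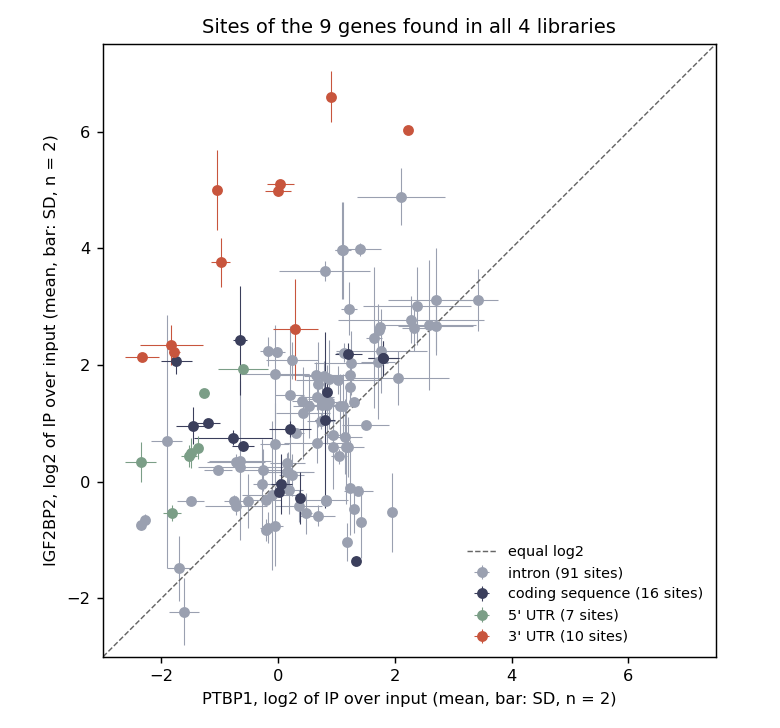
Mean log2 of IP over input reads of PTBP1 (horizontal axis) and IGF2BP2 (vertical axis), with SD over 2 libraries, at the 124 sites of the 9 genes found in all 4 libraries. Every 3′ UTR and 5′ UTR site lies above the dashed line of equal values, and the coding and intron sites lie on both sides.

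Coding sequence made up 22.0% ± 2.37 of the members' PTBP1 peaks and 11.1% ± 1.59 of their IGF2BP2 peaks (SD, n = 2 each), and 3′ UTRs 3.64% ± 0.32 and 9.14% ± 0.19. Neither pair of libraries overlapped the other, but the two-sided exact permutation test could not go below p = 0.333, its value here. Over all peaks the coding shares were 13.4% in PTBP1 and 9.21% in IGF2BP2, and the 3′ UTR shares 3.21% in PTBP1 and 6.70% in IGF2BP2. TIMP2 weighs on the 3′ UTR difference, which was -5.50 percentage points with it and -13.6 without it. Member peaks were found again in the other replicate in 78.0% and 80.7% of cases for PTBP1 (95% Wilson intervals 73.8 to 81.6% and 76.6 to 84.2%) and in 70.2% and 71.0% for IGF2BP2 (64.8 to 75.1% and 65.6 to 75.8%). Over all peaks these shares were 55.6% and 61.5% for PTBP1 and 48.2% and 51.6% for IGF2BP2, at the lower read numbers per peak given above. The intervals cover counting error only.

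Among 76 other matrix genes, receptors and proteases, 69 were named in the files and 56 were tested for density. Of these, 8 were higher in PTBP1 and 6 in IGF2BP2, and 42 did not pass; their median difference was -0.05. Among those that passed, the largest differences toward PTBP1 were those of the thrombospondin THBS4 (12 and 11 PTBP1 peaks, 2 and 2 IGF2BP2 peaks, 1.57 on the log2 scale), the fibrillin FBN2 (1.44) and the growth factor TGFB2 (0.93). Toward IGF2BP2 they were those of the collagen crosslinking enzyme LOX (10 and 6 PTBP1 peaks, 11 and 23 IGF2BP2 peaks, -1.69), the proteoglycan AGRN (-1.17) and TGFB1 (-1.16). Regions enriched in both replicates were most numerous for PTBP1 in the hyaluronan receptor CD44 (8), FBN1 (7) and LOXL2 (5), and for IGF2BP2 in the brain proteoglycan BCAN (9), while CD44 held 5. In the 3′ UTR, 0 of the 69 genes held an enriched PTBP1 region (0.622% of all genes) and 13 an enriched IGF2BP2 region (6.81% of all genes).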

How the data were processed

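The analysis used the peak list of each of the 4 IP libraries; separate files of the inputs are not used here. HISAT2 and hg38 are named in the submitters' processing notes; the peak caller is not given in the sources used here. Per the file headers, each line gives position, strand, gene, transcript region and overlap length. Beside these, each deposited list has a −log10 p, which stops at 400, and a column that the authors headed as a count but whose values are log2, equal to the log2 ratio of whole IP to input reads plus a constant per chromosome. That reading comes from the values. Reads were recovered where they gave back the −log10 p within 1%, which worked for 98.4% and 98.3% of eligible PTBP1 peaks and 99.5% of IGF2BP2 peaks in each library. All chromosomes of a library were put on the median constant, and p was recomputed from the recovered reads.

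Repeated lines (at most 55 a list) were removed. Peaks overlapped when they shared 1 nt on a strand. For density, limma 3.58.1 was run with a trend in R 4.3.3, with Benjamini-Hochberg adjustment at 0.05 over all genes tested; shares were compared with a two-sided exact permutation test. Overlap, recovery and the density test were checked on simulated data. The members, the matrix list, the rule for named genes (all members; of the matrix list the 3 largest differences each way among those past the threshold and the 3 with most enriched regions per protein) and the rule for regions (the highest mean log2 per member and protein) were chosen with earlier results of these data known. One gene that the rule names is not reported here. A search for genes resembling FN1 could not be run, since FN1 had no enriched peak. Gene extents and sequences are those of RefSeq; 7 of the 9 members had a promoter sequence. Alternatives varied the pseudocount, filter, scaling, thresholds, strand and libraries.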

Additional observations from a re-analysis of the deposited data

Results flagged for a closer look

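For 8 gene regions the median log2 of IP over input had one sign in both PTBP1 libraries and the opposite sign in both IGF2BP2 libraries. This held for 8 of the members' 20 gene regions with peaks in all libraries, against 10.4% of 22906 gene regions over all genes. The members' 20 were 5 5′ UTRs, 6 coding sequences, 5 sets of introns and 4 3′ UTRs. The share over all genes was not matched to this mix. The differences themselves were not tested. As PTBP1 minus IGF2BP2, they were -2.18 in the 5′ UTR of FN1, -1.70 in that of THBS1, -1.66 in that of TIMP2, -2.36 in that of CCN1 and -2.20 in that of CCN2. In the 3′ UTR of TIMP2 the difference was -4.55. In coding sequence it was -1.84 for CCN2 and, the other way, 2.12 for SPARC. The 5′ UTR values of FN1 rest on 1 and 2 PTBP1 peaks and 1 IGF2BP2 peak per library. On the deposited scale, before chromosomes were put on 1 constant (an alternative chosen after seeing the data), 6 of the 8 kept opposite signs, and the FN1 5′ UTR and CCN2 coding sequence did not. The differences there were -1.86 for FN1 and -1.01 for CCN2 coding sequence. In the other 5′ UTRs they were -1.66 for CCN1 and -1.37 for CCN2, both smaller, and -1.92 for THBS1 and -1.72 for TIMP2. The TIMP2 3′ UTR had -4.60 and SPARC coding sequence 2.06.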

How the results depend on the processing

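The density test called 3782 genes. This count was 6447 with nucleotides covered, 975 with enriched peaks only, and 2267 to 6388 when 1 library was left out. With peaks of at least 10 IP reads, 2770 genes were higher in PTBP1 and 1298 in IGF2BP2, against 1922 and 1860. Same-numbered libraries did not deviate together (correlation -0.0016), and with the replicate number as a block 4763 genes were called and no member's call changed. SPARC reversed to -0.15 with nucleotides covered, and THBS1, not called, to 1.68 with at least 10 IP reads. CCN2 missed the threshold with TMM scaling (adjusted p = 0.0542) and with no filter on peaks (adjusted p = 0.0582), as SPARC did with no filter (adjusted p = 0.0632) and with at least 10 IP reads (adjusted p = 0.100). TIMP2 lost its call with enriched peaks only, at -0.0021. TGFBI passed without IGF2BP2 replicate 1 (2.97) and CCN1 with nucleotides covered (-1.06).

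Enriched regions numbered 2 for PTBP1 and 11 for IGF2BP2 at a threshold of 4. On the deposited values they numbered 5 for PTBP1 and 20 for IGF2BP2. With own-strand peaks only, an alternative chosen after seeing the data, they numbered 4 for PTBP1 and 16 for IGF2BP2. Enriched peaks of 1 replicate alone numbered 19 to 22 for PTBP1 and 32 to 37 for IGF2BP2. The coding and 3′ UTR shares kept their direction under all 11 alternatives each, but the 3′ UTR difference of -5.50 was -13.6 without TIMP2, -15.7 with equal weight per member and -49.3 with enriched peaks only. The intron share, PTBP1 minus IGF2BP2, was -3.01 percentage points (replicate block -3.01, 1 library left out -4.71 to -1.31) and reversed to 44.9 with enriched peaks only, 11.0 with at least 10 IP reads, 7.69 with equal weight per member and 11.0 without TIMP2. The 5′ UTR difference, -2.33, was -8.33 without TIMP2 and 0 with enriched peaks only, since neither protein had one there. The causes were not tested. IGF2BP2 depth limits single peaks, many of which rest on 3 to 10 IP reads.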
